A study of Mus musculus with 6 samples.

Results

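Collagens are the triple-helical proteins of the extracellular matrix, and the genes described here are the 44 of 23420 gene symbols in the deposited tables that are named Col, a type number, the letter a and a chain number. Bulk RNA was sequenced from whole tooth germs of C57BL/6 mouse embryos at E15.5, in 3 wild-type and 3 Smad7-/- libraries. The SMAD7 protein dampens signalling by TGF-beta and BMP receptors. The allele, and whether a library holds 1 embryo or several, are not given in the sources used here. A p-value here therefore reflects the spread between 3 libraries a group. By the Xist and Y-linked reads given below, each group holds libraries of both sexes, and so more than 1 embryo. The spread between libraries of the same sex may still be technical. Smad7 itself was counted 859 to 1097 times in wild-type libraries and 41 to 80 times in Smad7-/- libraries, which matches the labels.

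Each collagen type is built from 3 polypeptide chains, which may be products of 1 gene or of several, wound around each other in the endoplasmic reticulum. Fibrillar collagens (types I, II, III, V, XI, XXIV and XXVII) form the fibres of bone, dentin, cartilage and soft connective tissue. Type IV, with types XV and XVIII, belongs to the basement membrane, the sheet that separates dental epithelium from mesenchyme and surrounds vessels. Types VIII and X form open networks, type VI forms beaded filaments, and fibril-associated collagens decorate the surface of fibrils. TGF-beta is a well-known inducer of collagen genes in mesenchymal cells, and type I collagen is the main protein of the dentin matrix that odontoblasts secrete.

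Library depth ran from 37591888 to 56575476 counts, and 15284 genes passed the filter on low counts. The libraries also separated across genotype. On the first principal component of all genes but the collagens, which held 33.6% of the variance, the first set was wild-type library 1 together with Smad7-/- libraries 1 and 2. The second set was Smad7-/- library 3 together with wild-type libraries 2 and 3. Xist was read in wild-type library 1 and Smad7-/- library 3, and Y-linked genes in the other libraries. No label ties either division to a date or batch. Differences between genotypes inside each set are given beside the results. Inside a set, 1 genotype is a single library and the genotypes differ in sex as well, so genotype, sex and that library cannot be told apart there. The tooth epithelium marker Krt14 (1529 ± 45.6 CPM in wild type, SD, n = 3) and the odontoblast marker Dspp (2622 ± 900) were abundant, while skeletal muscle markers summed to at most 6.11 CPM in any library.

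Type I collagen was the leading collagen of the tooth germ. Collagen genes held 2.39%, 2.88% and 3.42% of the counts of wild-type libraries 1, 2 and 3, and 2.83%, 3.25% and 3.37% of Smad7-/- libraries 1, 2 and 3. Col1a1 and Col1a2 made up most of this, with 1.95% ± 0.460 of counts in wild type and 2.08% ± 0.243 in Smad7-/- (SD, n = 3). By mean CPM (counts scaled to the effective library size), Col1a1 ranked 1 and Col1a2 ranked 4 among all 23420 symbols. Col3a1 ranked 35, Col4a1 74 and Col4a2 112. At the other end, 6 collagen genes averaged under 1 CPM. These were Col10a1 of hypertrophic cartilage, Col9a1, Col4a3, Col6a4, Col6a6 and Col19a1, the last of which did not pass the filter and was not tested (2, 10 and 9 counts in wild type and 5, 26 and 56 in Smad7-/-).

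Levels per length (RPKM, CPM per kilobase of exon) allow genes to be compared with each other. In wild type, Col1a1 stood at 1961 ± 403 RPKM and Col1a2 at 1481 ± 399, followed by Col3a1 at 242 ± 40.4 and Col4a1 at 139 ± 20.8. Of the summed collagen RPKM, fibrillar genes held 81.9% ± 3.43 in wild type and 81.9% ± 1.78 in Smad7-/-. Basement membrane genes held 7.12% ± 2.0 and 7.01% ± 0.922, and fibril-associated genes 5.06% ± 0.688 and 4.64% ± 0.399. Beaded filament genes held 2.24% ± 0.427 and 2.69% ± 0.127, and network genes 0.438% ± 0.114 and 0.608% ± 0.0335. The share of Col3a1 was 4.96% ± 0.671 in wild type and 6.22% ± 0.887 in Smad7-/-, and the Smad7-/- library with the lowest share (5.41%) lay below the wild-type library with the highest (5.66%).

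**Figure D1:**
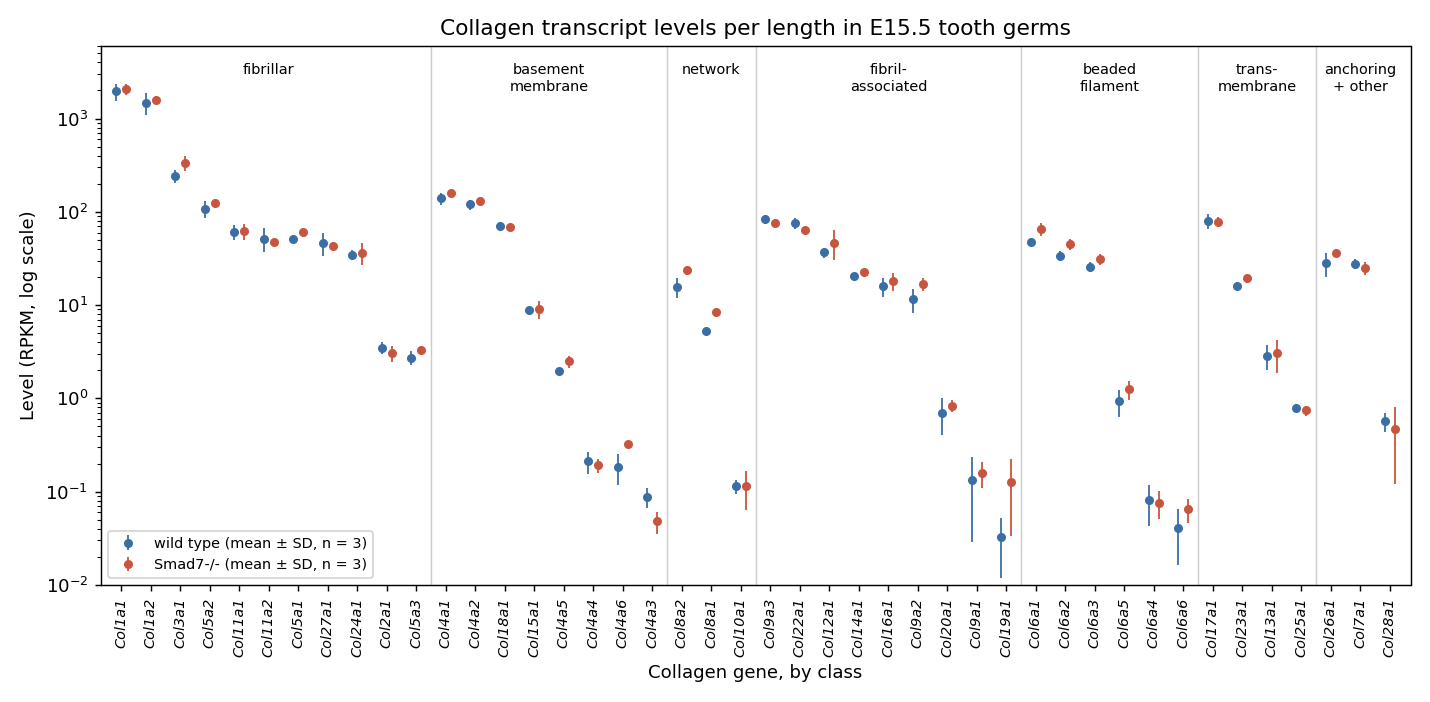
Level of each collagen gene in RPKM (log axis) by class, with wild-type means in blue and Smad7-/- means in red; bars are SD over 3 libraries per group. The 2 type I chains stand highest, at 1961 and 1481 RPKM in wild type, and members of each class span a wide range, down to 0.0323 RPKM for Col19a1.

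No collagen gene passed an adjusted p of 0.05 between genotypes in edgeR's quasi-likelihood test, where 4 of 15284 genes (0.0262%) passed. The smallest adjusted p among the 43 tested members was 0.383, for Col8a1. Fitted log2 fold changes (Smad7-/- over wild type) were above 0 for 29 and below 0 for 14 of the 43, beside 49.1% above 0 among all genes, with a median of 0.17 against -0.003 over all genes. All 3 Smad7-/- libraries lay above all 3 wild-type libraries for 11 collagen genes, where 4.97% of all tested genes did so. They lay below for 2, Col22a1 and Col4a3, where 3.91% of all genes did. Unadjusted p-values lay under 0.05 for 11 collagen genes on the higher side (3.26% of all genes) and for 0 on the lower side (1.88%). DESeq2, run as an alternative, called 59 of 16816 genes (0.351%), of which 1, Col8a1, was a collagen.

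These counts moved with single libraries. Without Smad7-/- library 3 the collagen median was 0.07 and 27 of the 43 members stood above 0. An unadjusted p under 0.05 was then reached by 6 members on the higher side, where 3.89% of all genes did so, and by 3 on the lower side (5.01%). Leaving that library out, the group ranges stood apart on the higher side for 13 members, where 12.4% of all genes did so, and on the lower side for 4 (12.5%). Without wild-type library 2, 4 members had an unadjusted p under 0.05 on the higher side, where 1.61% of all genes did. Within the first set the median of the 43 members was 0.17 and within the second 0.35. Members above 0 in both sets numbered 24 of 43 (55.8%), beside 25.7% of all genes, and 4 (9.30%) stood below 0 in both, beside 24.9%. Summed markers of dental mesenchyme (440 to 510 CPM in wild type, 525 to 559 in Smad7-/-) and of macrophages and osteoclasts (580 to 896 and 1232 to 1399 CPM) were likewise higher in all 3 Smad7-/- libraries. Their part in the collagen values was not tested.

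Promoters of 4 genes are shown to set genes whose groups stood apart beside an abundant one whose groups overlapped. The first kind are the 2 chains of type VIII collagen and Col3a1, and the other is Col1a2. Each is the stretch of 250 bases before the start of transcription from RefSeq (GRCm38.p6), written from 5′ to 3′ on the strand of the gene. The Col1a2 stretch lies inside the gene as annotated by GENCODE, which starts at base 4504814, so the 2 annotations differ there. Capitals mark matches to 4 short motifs on either strand. The TATA box was searched as TATAAA. The GC box was searched as GGGCGG. The CCAAT box was searched with the letters of its name. The half-site bound by SMAD3 and SMAD4 was searched as CAGAC.
Col8a1 (chr16:57754738-57754987, reverse strand): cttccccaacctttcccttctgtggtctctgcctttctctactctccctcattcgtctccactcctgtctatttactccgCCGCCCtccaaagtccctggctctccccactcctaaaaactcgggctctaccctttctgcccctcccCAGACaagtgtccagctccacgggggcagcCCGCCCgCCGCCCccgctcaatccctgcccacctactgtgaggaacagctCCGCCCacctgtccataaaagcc
Col8a2 (chr4:126286544-126286793, forward strand): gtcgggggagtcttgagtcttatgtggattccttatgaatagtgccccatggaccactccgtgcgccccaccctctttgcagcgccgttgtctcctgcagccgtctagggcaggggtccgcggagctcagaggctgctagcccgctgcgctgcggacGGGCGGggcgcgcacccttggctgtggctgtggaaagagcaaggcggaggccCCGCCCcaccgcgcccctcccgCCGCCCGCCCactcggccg
Col3a1 (chr1:45311288-45311537, forward strand): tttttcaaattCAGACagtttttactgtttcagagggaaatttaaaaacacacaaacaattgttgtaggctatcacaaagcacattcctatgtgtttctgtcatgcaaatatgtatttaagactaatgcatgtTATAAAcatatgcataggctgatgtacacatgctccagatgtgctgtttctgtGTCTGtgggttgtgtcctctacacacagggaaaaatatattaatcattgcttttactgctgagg
Col1a2 (chr6:4505368-4505617, forward strand): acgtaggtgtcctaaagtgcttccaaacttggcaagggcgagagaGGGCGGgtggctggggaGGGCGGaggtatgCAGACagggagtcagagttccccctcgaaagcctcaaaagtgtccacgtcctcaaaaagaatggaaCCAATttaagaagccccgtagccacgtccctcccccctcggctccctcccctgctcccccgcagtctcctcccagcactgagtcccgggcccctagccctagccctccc
GC boxes occurred 4 times before Col8a1 and 4 times before Col8a2, where 2 of them overlap, and 2 times before Col1a2, while none lay before Col3a1. Col3a1 had the only TATA match of the 4, and Col1a2 the only CCAAT match. CAGAC occurred 1 time before Col8a1, 2 times before Col3a1, 1 time before Col1a2 and not before Col8a2. Windows were found for 35 of the 44 members. For 31 of these, bases shortly after the RefSeq start were found somewhere within a GENCODE transcript of the gene. Whether the start positions are the same was not tested. CAGAC was present in 14 of the 35 (40%), beside 42.2% of all 32851 windows, CCAAT in 12 (34.3%, beside 33.8%) and TATAAA in 5 (14.3%, beside 12.4%). GGGCGG was present in 21 (60%), beside 32.7%. Members were counted by 1 window per gene, whereas the whole set counts every window of every gene. The paired percentages are therefore of unlike units, and no difference between them was tested. A match is only a match of letters.

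Network collagens had the largest class median over all 6 libraries, at 0.61, with beaded filaments next at 0.42. Inside the first set this order turned (0.31 and 0.36), and inside the second they were almost level (0.56 and 0.55). The network median rests on type VIII, a short-chain collagen of vessel walls and of the corneal membrane beneath the endothelium. Col8a1 stood at 25.7, 25.9 and 29.9 CPM in wild-type libraries 1, 2 and 3 and at 39.4, 48.0 and 40.9 in Smad7-/- libraries 1, 2 and 3. The lowest Smad7-/- value was thus well above the highest wild-type value. The difference was 0.65 ± 0.11 on the log2 scale (SE, 95% interval 0.40 to 0.90, or 1.57-fold), with an edgeR adjusted p of 0.383. DESeq2 gave 0.65 ± 0.13 with an adjusted p of 9.89e-04, so the call depends on the tool. Over 16 alternative fits the log2 difference ran from 0.56 to 0.73 and the adjusted p from 9.89e-04 to 1.0. Between genotypes, Col8a1 differed by 0.77 inside the first set and by 0.56 inside the second.

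Col8a2, the partner chain, stood at 77.9, 49.5 and 76.2 CPM in wild type and at 96.4, 97.2 and 117 in Smad7-/-. The groups did not overlap here either, and wild-type library 2 was the lowest by a wide margin. Its difference was 0.61 ± 0.17 (log2, SE; edgeR adjusted p = 0.668, DESeq2 adjusted p = 0.0829), with 0.31 in the first set and 0.90 in the second. Without wild-type library 2 it was 0.42. The per-length ratio of Col8a2 to Col8a1 was 2.94 ± 0.665 in wild type and 2.88 ± 0.491 in Smad7-/-. Col10a1, the type X gene of hypertrophic chondrocytes, stood at 0.356 ± 0.0639 and 0.362 ± 0.163 CPM, a level near the lower end of what was tested.

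Type VI collagen, whose beaded filaments lie around cells and vessels, was the other class with a summed level that did not overlap between groups. Its genes summed to 714, 603 and 740 CPM in wild type and 779, 913 and 986 in Smad7-/-. Of 6 members 5 stood above 0, with a class median of 0.42. Col6a1 was at 205, 175 and 207 CPM in wild type and 220, 304 and 288 in Smad7-/-, and Smad7-/- library 1 was only just above the wild-type range. That difference came to 0.47 ± 0.13 (log2, SE; edgeR adjusted p = 0.652), and to 0.35 and 0.60 within the first and second sets.

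Col6a2, on the same strand of chromosome 10 as Col6a1 and 85161 bases away, was at 200, 180 and 229 CPM in wild type and 228, 287 and 294 in Smad7-/-. Here wild-type library 3 and Smad7-/- library 1 overlapped by a small margin, and the difference was 0.41 ± 0.12 (edgeR adjusted p = 0.705). Col6a3, the long chain that completes the trimer, was at 302, 238 and 291 CPM in wild type and 320, 308 and 390 in Smad7-/-, without overlap, at 0.29 ± 0.12 (edgeR adjusted p = 0.912). Within the first set Col6a3 differed by 0.06 and within the second by 0.57. Per length, the level of Col6a1 was 1.42 ± 0.0918 times that of Col6a2 in wild type and 1.47 ± 0.0737 times in Smad7-/-. Col6a3 stood at 0.757 ± 0.0709 and 0.701 ± 0.0952 times Col6a2. Chain proportions overlapped between genotypes. The later-described chains Col6a4, Col6a5 and Col6a6 were minor, with Col6a5 the highest of them at 8.72 ± 2.84 CPM in wild type and a difference of 0.43 ± 0.26. Col6a4 and Col6a6 stood at -0.11 ± 0.46 and 0.69 ± 0.51. These paralogous genes lie together on chromosome 9. How reads that match more than 1 copy were counted is not given in the sources used here.

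Fibrillar genes had a class median of 0.09, with 8 of 11 above 0, beside 49.1% of all genes. For 3 of the 11 all Smad7-/- libraries lay above wild type, beside 4.97% of all genes. The median was -0.06 without wild-type library 1, 0.24 without wild-type library 3 and 0.19 without Smad7-/- library 1. Col1a1 was at 9139, 11838 and 13907 CPM in wild type and 10581, 13761 and 12706 in Smad7-/-. The wild-type libraries spanned the whole Smad7-/- range, with library 1 lowest and library 3 highest. The difference was 0.09 ± 0.18 (log2, SE), and its 95% interval of -0.32 to 0.49 leaves room for changes of either sign. Col1a2 was at 6012, 7528 and 10221 CPM and at 7480, 9148 and 8679, a difference of 0.09 ± 0.19 (interval -0.34 to 0.52). The 2 genes differed by 0.41 and 0.47 within the first set and by -0.01 and -0.02 within the second. Their per-length ratio stayed between 1.23 and 1.42 in the 6 libraries. The type I trimer holds 2 copies of the Col1a1 product and 1 of the Col1a2 product. Wild-type library 1 was also the lowest wild-type library in the sum of bone and odontoblast markers, at 3153 CPM against 4707 and 5529. The most abundant of these markers, Dspp, was at 1618 CPM there against 2894 and 3355. Not every marker was lowest there, as Ibsp was at 139 CPM against 125 and 121. Any link to the type I values was not tested.

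Col3a1, the fibrillar collagen of loose and perivascular connective tissue, was at 1289, 1155 and 1594 CPM in wild type and 1621, 1691 and 2228 in Smad7-/-. Smad7-/- library 3 was the highest, and Smad7-/- library 1 lay just above wild-type library 3. The difference was 0.46 ± 0.16 (log2, SE; interval 0.10 to 0.81; edgeR adjusted p = 0.827), with 0.36 and 0.71 within the sets and 0.30 without Smad7-/- library 3. Type V, which joins type I fibrils and limits their width, was read through 3 genes. The CPM of Col5a1 was 445, 415 and 439 in wild type and 506, 498 and 548 in Smad7-/-. Its groups did not overlap, at 0.26 ± 0.09 (edgeR adjusted p = 0.827). Col5a3, a minor type V chain, did not overlap either (0.28 ± 0.14), whereas Col5a2, on the other strand of chromosome 1 and 24614 bases from Col3a1, overlapped at 0.20 ± 0.15.

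Fibrillar genes usually linked with cartilage were present at unequal levels. Type XI genes were well expressed, with Col11a1 at 465 ± 87.0 and Col11a2 at 326 ± 93.4 CPM in wild type, while Col2a1, the main cartilage collagen, stood at 17.8 ± 2.59. Differences were 0.04 ± 0.16 for Col11a1, -0.11 ± 0.18 for Col11a2 and -0.19 ± 0.16 for Col2a1, each with overlapping groups. Col27a1 and Col24a1, the fibrillar genes described last, were at 353 ± 94.2 and 248 ± 32.9 CPM, with differences of -0.11 ± 0.19 and 0.07 ± 0.18. Without Smad7-/- library 3 the Col24a1 difference was -0.17.

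**Figure D2:**
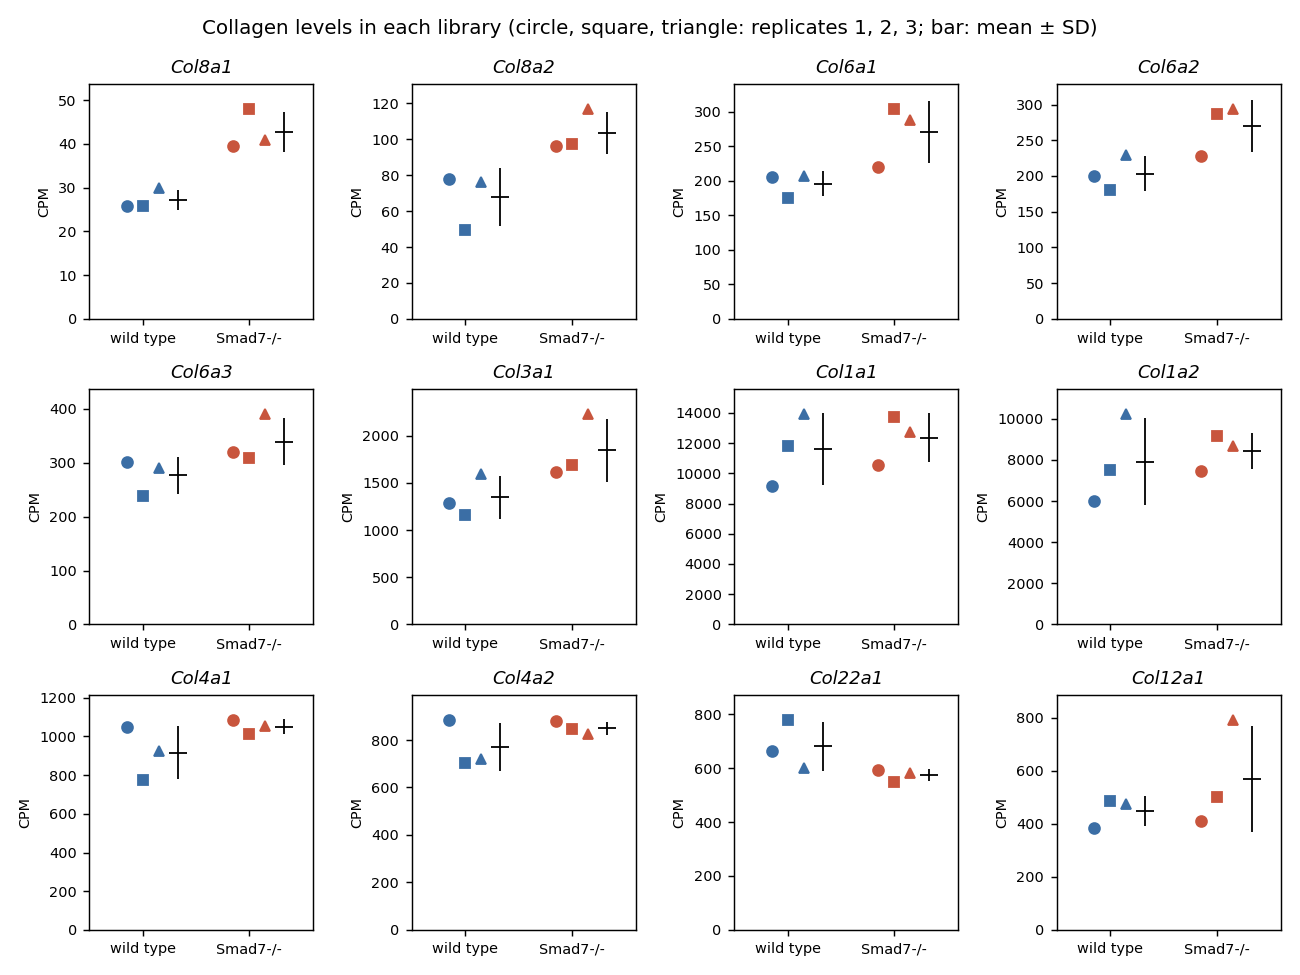
CPM of 12 collagen genes in each library, wild type in blue and Smad7-/- in red, with circles, squares and triangles for replicates 1, 2 and 3 and a black bar for the mean and SD of each group. Col8a1, Col8a2, Col6a1, Col6a3 and Col3a1 show groups that do not overlap on the higher side, Col22a1 on the lower side, and Col12a1 has 1 high Smad7-/- library at 792 CPM.

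Basement membrane genes had a median of 0.09, with 5 of 8 above 0, and it ranged from 0.05 without wild-type library 2 to 0.16 without wild-type library 1. Col4a1, whose product with that of Col4a2 forms the common type IV trimer, was at 1049, 775 and 927 CPM in wild type and 1086, 1011 and 1055 in Smad7-/-. Wild-type library 1 lay inside the Smad7-/- range, and the difference was 0.20 ± 0.12 (log2, SE). Col4a2 was at 885, 705 and 722 CPM and at 879, 845 and 825, a difference of 0.14 ± 0.11. Both were close to 0 within the first set (0.00 and -0.04) and at 0.32 and 0.22 within the second. These 2 genes start 21 bases apart on opposite strands of chromosome 8, with 22 bases of annotated exon in common, and their per-length ratio lay between 1.07 and 1.25 in the 6 libraries. Col18a1, the source of endostatin, stood at 473 ± 52.6 and 463 ± 42.0 CPM, with a difference of -0.03 ± 0.11, and Col15a1 at 0.05 ± 0.15.

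The other type IV chains were far less abundant and had mixed signs. Col4a5, mutated in the X-linked form of Alport kidney disease, was at 12.7, 12.5 and 13 CPM in wild type and 18.8, 13.9 and 16.3 in Smad7-/-. Its groups did not overlap, and the wild-type values were close together (0.36 ± 0.14, log2, SE; edgeR adjusted p = 0.867). Col4a6 starts 1309 bases from Col4a5 on the opposite strand of the X chromosome. It was at 1.17, 0.829 and 1.72 CPM in wild type and 2.08, 2.35 and 2.10 in Smad7-/-, again without overlap (0.81 ± 0.31; edgeR adjusted p = 0.851). With sex of the library as a covariate these differences were 0.36 and 0.81. Col4a3 and Col4a4, which start 72 bases apart on chromosome 1, stood at -0.85 ± 0.39 and -0.15 ± 0.28. Col4a3 was counted 43, 43 and 26 times in wild type and 14, 14 and 31 times in Smad7-/-, and the third libraries, at 0.544 and 0.538 CPM, were almost level.

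Fibril-associated genes had a median of 0.22, with 6 of 8 tested members above 0. The median was 0.02 without Smad7-/- library 3 and 0.39 without wild-type library 3. Col22a1, known from tissue junctions such as that of muscle and tendon, was at 664, 779 and 599 CPM in wild type and 594, 549 and 582 in Smad7-/-. All Smad7-/- values lay below wild type, the nearest by a small margin, at -0.24 ± 0.11 (log2, SE; edgeR adjusted p = 0.967), and the difference was -0.22 and -0.24 within the 2 sets. Col12a1, found on fibrils of tendon and periosteum, was at 383, 485 and 475 CPM in wild type and 409, 501 and 792 in Smad7-/-. Library 3 alone stood out, and the difference of 0.34 ± 0.23 became 0.02 without it. Col14a1, another fibril-associated collagen of dense connective tissue, was at 143, 130 and 120 CPM in wild type and 151, 145 and 147 in Smad7-/-, without overlap (0.17 ± 0.09; edgeR adjusted p = 0.999).

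Type IX genes, whose products coat cartilage fibrils together with type II, were unequal. Col9a3 reached 222, 270 and 268 CPM in wild type and 253, 236 and 211 in Smad7-/- (-0.12 ± 0.11), while Col9a1 stood at 0.544 ± 0.421 CPM in wild type (0.27 ± 0.60). Col9a3 shares 234 exon bases, 7.68% of its exon length, with Tcfl5 on the other strand, and no source used here says that reads were counted by strand. Tcfl5 itself was at 1.54 ± 0.257 CPM in wild type. Col9a2 was at 28.6, 27.2 and 44.8 CPM in wild type and 41.2, 49.3 and 56.5 in Smad7-/-. Wild-type library 3 lay above Smad7-/- library 1, and the difference was 0.55 ± 0.20 (edgeR adjusted p = 0.827), at 0.66 within each set. The per-length ratio of Col9a3 to Col9a2 was 7.58 ± 1.89 in wild type and 4.69 ± 1.15 in Smad7-/-, with overlap between groups. Col16a1 and Col20a1 stood at 0.19 ± 0.19 and 0.25 ± 0.30.

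Transmembrane collagens had a median of 0.04, which ranged from -0.10 without wild-type library 1 to 0.16 without wild-type library 2. Col17a1, the hemidesmosome collagen that anchors epithelial cells to their basement membrane, was at 357, 510 and 466 CPM in wild type and 502, 395 and 417 in Smad7-/-. The ranges overlapped widely, and the difference was -0.02 ± 0.14 (log2, SE). Col23a1 was at 89.1, 81.9 and 99.8 CPM in wild type and 106, 101 and 124 in Smad7-/-, without overlap (0.29 ± 0.11; edgeR adjusted p = 0.827). Col13a1 and Col25a1 were lower in level, at 9.17 ± 2.69 and 5.46 ± 0.502 CPM in wild type, and stood at 0.10 ± 0.29 and -0.08 ± 0.18. The 3 genes of anchoring fibrils and other types had a median of -0.15, with 1 above 0. It was -0.28 inside the first set and 0.44 inside the second, and ranged from -0.22 without wild-type library 3 to 0.06 without Smad7-/- library 2. Col7a1, which forms the anchoring fibrils beneath epithelium, was at 286, 254 and 228 CPM in wild type and 269, 202 and 222 in Smad7-/- (-0.15 ± 0.12). Col26a1 was at 95.6, 53.6 and 84.8 CPM and at 112, 99 and 93.5, overlapping at 0.38 ± 0.19. Col28a1 stood at 2.41 ± 0.556 and 1.97 ± 1.46 CPM, with Smad7-/- library 3 at 3.64 and the other two Smad7-/- libraries at 1.30 and 0.966.

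**Figure D3:**
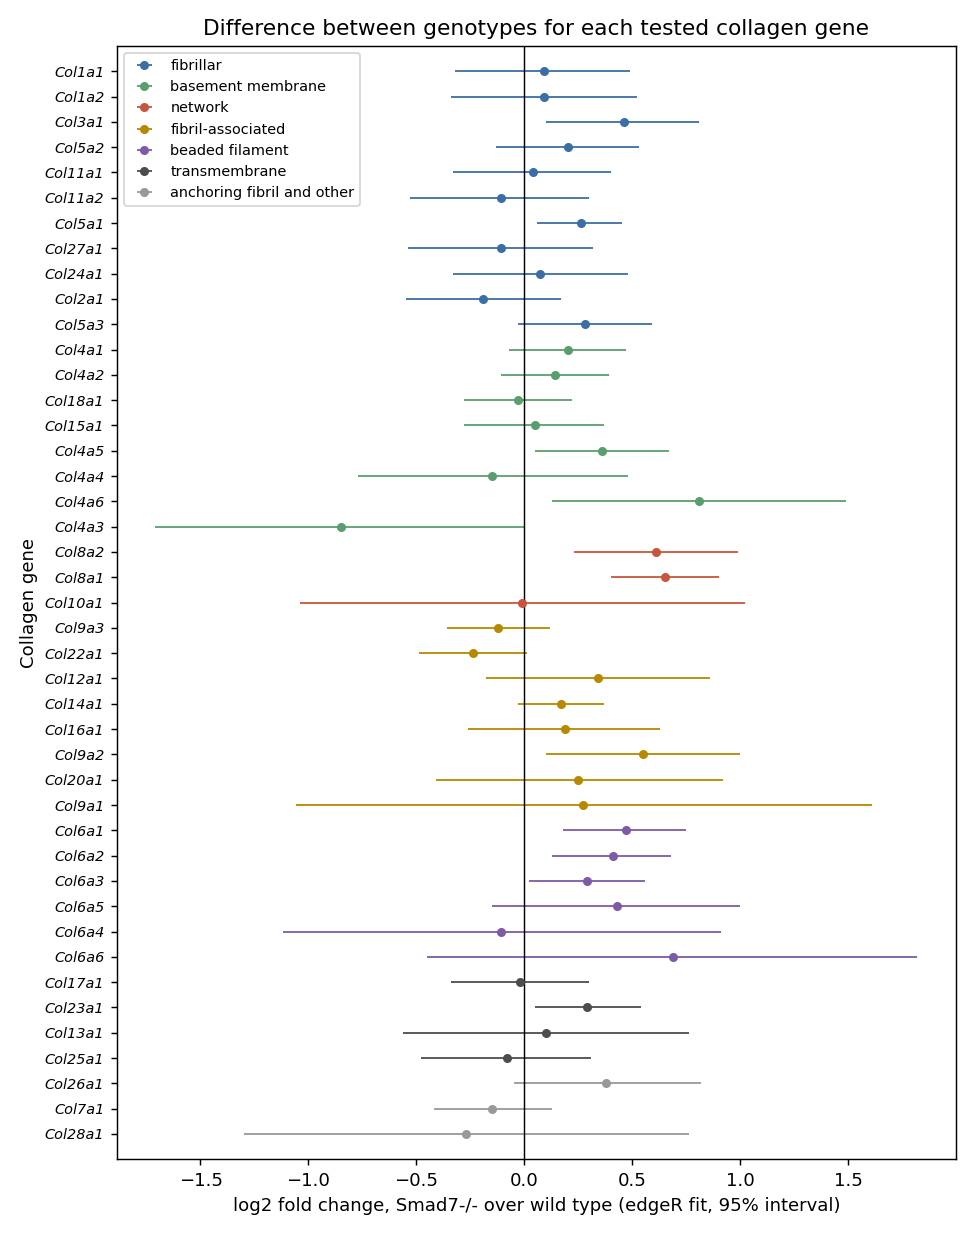
Fitted log2 fold change of each of the 43 tested collagen genes with its 95% interval, coloured by class; the vertical line marks 0. Intervals of 11 genes lie wholly above 0, among them Col8a1 (0.40 to 0.90), Col6a1 (0.18 to 0.75) and Col3a1 (0.10 to 0.81), and none passed after adjustment over all genes. Among all genes tested, 3.26% had an unadjusted edgeR p under 0.05 on the higher side.

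Lists of genes that make and handle collagen had medians between -0.03 and 0.06, and leaving out 1 library turned the sign of each of them except that of the export genes. Chain modification and folding genes, which hydroxylate and chaperone procollagen, had a median of -0.03 over 21 genes, with 10 above 0. The most abundant were Sparc, a collagen-binding matricellular protein, at 0.17 ± 0.17 (log2, SE), and P4hb, a subunit of prolyl hydroxylase, at -0.09 ± 0.12. Plod2, the lysyl hydroxylase of collagen telopeptides, was the only gene of these 5 lists whose groups did not overlap, and it is named for that reason, after its values were known. It was at 659, 820 and 854 CPM in wild type and 524, 656 and 648 in Smad7-/-, on the lower side by a small margin (-0.35 ± 0.13, edgeR adjusted p = 0.827). Of all genes tested, 3.91% had groups apart on the lower side and 4.97% on the higher side. Export genes had a median of -0.03 with 3 of 10 above 0, Sec31a and Sar1a of the COPII coat being at 0.03 ± 0.08 and 0.00 ± 0.08.

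Genes of propeptide cleavage had a median of 0.05, with 6 of 9 above 0. Among them the procollagen C-proteinase enhancer Pcolce was at 0.13 ± 0.15 and the protease Furin at 0.06 ± 0.16. Cross-linking genes had a median of 0.06 with 5 of 7 above 0, and the peroxidase Pxdn, which cross-links type IV collagen, was at 0.06 ± 0.12. The lysyl oxidase gene Lox stood at 0.02 ± 0.22. Collagen receptors had a median of 0.03 with 7 of 10 above 0, and the integrin Itgb1 and the uptake receptor Mrc2 were at 0.04 ± 0.10 and -0.04 ± 0.17. In these 5 lists edgeR called 0 genes, beside 0.0262% of all genes. An unadjusted edgeR p under 0.05 was reached by 1 gene, Plod2, on the lower side, beside 1.88% of all genes. DESeq2 called 0 of these genes, beside 0.351% of all genes.

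Markers of several cell types stood above 0 as well, though edgeR called 0 of them, beside 0.0262% of all genes. DESeq2 called 4 macrophage and osteoclast markers and 1 dental mesenchyme marker, beside 0.351% of all genes. Dental mesenchyme markers summed to 440 to 510 CPM in wild type and 525 to 559 in Smad7-/-, with 10 of 11 members above 0 and a median of 0.53. Macrophage and osteoclast markers summed to 580 to 896 and 1232 to 1399 CPM, with 12 of 12 above 0 and a median of 0.63. Unadjusted edgeR p-values lay under 0.05 on the higher side for 6 of the 11 and for 12 of the 12, beside 3.26% of all genes. Smooth muscle and pericyte markers overlapped, at 322 to 418 and 397 to 551 CPM, with 8 of 8 above 0, and endothelial markers overlapped at 250 to 381 and 351 to 396 CPM, also with 8 of 8 above 0. Tendon and perichondrial fibroblast markers were at 1684 to 2207 and 2065 to 2229 CPM, with 6 of 6 above 0.

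The sums of the remaining marker lists overlapped between groups or lay lower in Smad7-/-. Dental epithelium markers summed to 9857 to 10886 CPM in wild type and 8436 to 10093 in Smad7-/-, with 8 of 10 members below 0. Bone and odontoblast markers overlapped broadly in sum, at 3153 to 5529 and 3275 to 4488 CPM (median 0.03, 7 of 11 above 0). Dspp was the most abundant of them, at a mean of 2357 CPM. Groups stood apart on the higher side for 2 of the 11, beside 4.97% of all genes, and on the lower side for 0 (3.91%). The 2 were Ibsp (0.44 ± 0.12, log2, SE) and Runx2 (0.43 ± 0.11). Cartilage markers were at 379 to 403 and 353 to 407 CPM (median 0.05, 6 of 9 above 0), with Matn1 among 2 members at 0 in all libraries. Schwann cell markers were at 32.3 to 34.8 and 31.0 to 35.4 CPM, with 5 of 7 above 0. Red blood cell markers were at 69.3 to 95.2 and 45.0 to 55.5 CPM, with 0 of 5 tested members above 0, and 4 globin symbols are listed at 0 throughout. Skeletal muscle markers were at 5.42 to 6.11 and 4.39 to 6.05 CPM, with 2 of 7 above 0. In bulk RNA, fewer cells of a type and less RNA per cell cannot be told apart. The part of these further cell types in the collagen values was not tested either.

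**Figure D4:**
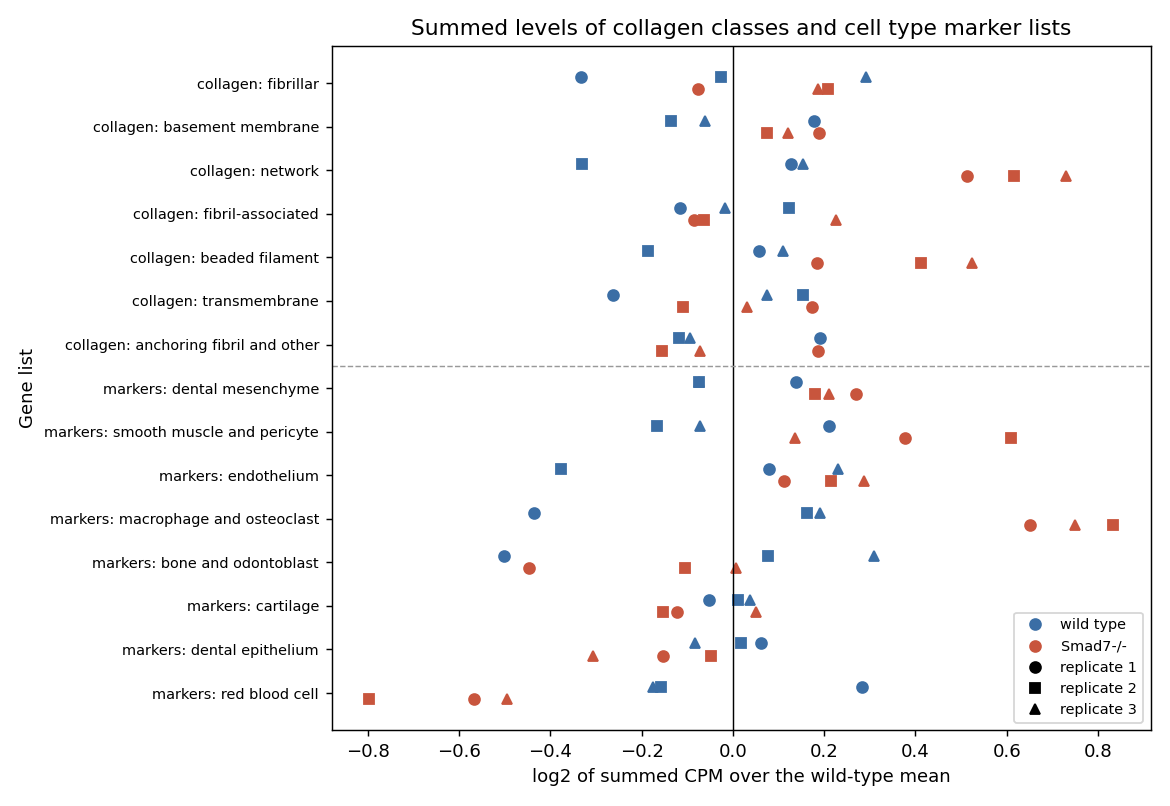
Summed CPM of each collagen class and 8 cell type marker lists in every library, as log2 over the wild-type mean, with wild type in blue, Smad7-/- in red and symbols for replicates 1 to 3. Among collagens the network and beaded filament sums do not overlap between groups, and among these marker lists the dental mesenchyme, macrophage and osteoclast, and red blood cell sums do not.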

How the data were processed

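Tooth germ RNA was measured in 6 libraries, 3 per genotype. Per the labels, libraries were made with a TruSeq RNA kit, and nothing is said of strand. The submitters' processing notes name HISAT2, featureCounts, DESeq2 and mm10; versions are not given in the sources used here. The authors deposited raw counts per gene symbol, 1 table per library. Of 23420 rows 27 had become dates and held at most 0.223% of a library.

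Genes with low counts were dropped by filterByExpr (count 10, total 15), and counts were scaled by TMM (factors 0.984 to 1.02), then tested with edgeR 4.0.16 (robust quasi-likelihood F-test, no covariate, Benjamini-Hochberg over 15284 genes, threshold 0.05) in R 4.3.3. The biological coefficient of variation was 15.9%. Without molecular identifiers, reads cannot be taken as separate molecules. RPKM used exon unions of basic protein-coding transcripts in GENCODE M21. Lists have no test of their own.

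Members, classes and lists were chosen with earlier results of these data known. The rule for naming in full took the 3 most abundant tested members per class by RPKM. It also took members with a mean of at least 1 CPM, groups that did not overlap and a log2 difference of at least 0.3. Of these, Col10a1, Col13a1, Col18a1 and Col28a1 are not given in every library. For each list of genes that make and handle collagen, the 2 most abundant genes and any gene called were named. Values of other members are also given, and those of Dspp, Krt14, Plod2, Ibsp and Runx2 were chosen after they were seen. Alternatives were DESeq2 1.42.0, limma-voom (limma 3.58.1), other scalings and filters, the replicate number as a block, a non-robust fit, library set or sex as a covariate, fits within each set, and leaving out each library. Group ranges without each library were added after seeing the data. Same-numbered libraries had residual correlations of 0.169, -0.0339 and 0.0927. Figures were drawn with matplotlib 3.10.9.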

Additional observations from a re-analysis of the deposited data

How the results depend on the processing

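The count of 4 genes called between genotypes was 59 by DESeq2, 2 where the mean had to reach 5 CPM and 1 to 7 without 1 library. It was 65 within the first set and 12 within the second, where 1 genotype is a lone library, assumed to vary like the others, of the other sex, so these counts cannot be read as genotype alone. Collagen genes called numbered 0 in every setting except DESeq2, which called 1, Col8a1 (log2 0.65). The collagen median of 0.17 was 0.35 within the second set and 0.07 to 0.25 without 1 library (with Col19a1 where it passed the filter), and 25 to 34 of the 43 members stood above 0 there. Group ranges stood apart on the higher side for 11 to 17 members without 1 library, where 6.31% to 13% of all genes did so, and 17 (10.7% of all genes) were reached without wild-type library 3. These counts were chosen after seeing the data. Without 1 library the median was -0.06 to 0.24 for fibrillar, 0.05 to 0.16 for basement membrane, 0.02 to 0.39 for fibril-associated, 0.31 to 0.56 for beaded filament, -0.10 to 0.16 for transmembrane and -0.22 to 0.06 for anchoring fibril and other genes. It was -0.08 to 0.09 for chain modification and folding, -0.07 to -0.01 for export, -0.02 to 0.12 for propeptide cleavage, -0.11 to 0.16 for cross-linking and -0.06 to 0.09 for receptors. The basement membrane median was -0.02 within the first set and 0.27 within the second. The network median was 0.31 within the first set and 0.42 to 0.70 without 1 library. The transmembrane median was 0.24 within the second set. The median of anchoring fibril and other genes, -0.15 over all libraries, was -0.28 within the first set, 0.44 within the second and 0.12 where the mean had to reach 5 CPM. Within the first set the medians were 0.10 for chain modification and folding, 0.38 for cross-linking and 0.26 for receptors. The cause of these shifts was not tested. Without division by length the chain ratios were 1.47 for Col1a1 to Col1a2, 0.629 for Col5a1 to Col5a2, 1.52 for Col11a1 to Col11a2, 0.984 for Col6a1 to Col6a2 and 1.32 for Col6a3 to Col6a2. This follows from unequal lengths. With the replicate number as a block, which no label ties to a litter or day, 4 genes and 0 collagens passed and the collagen median was 0.17. Not every library correlated best with its own number. The other 344 values of list medians, gene counts, count shares and chain ratios stayed within set limits. For gene counts the limit was a fixed fold, and for the rest it was the spread between libraries. Leaving out 1 library cannot move the mean of a chain ratio beyond that spread. Those values had to stay within the limit and say nothing of stability. A further 410 single-gene values kept their side of the threshold. The median SE over the collagens was 0.17 (log2).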
